A study of Mus musculus with 12 samples.

Results

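The early growth response (Egr) family and its corepressors were followed through the mouse prefrontal cortex after viral vectors for overexpression or knockdown of transthyretin (Ttr) had been injected. The 6 genes are the transcription factors Egr1, Egr2, Egr3 and Egr4 and the corepressors Nab1 and Nab2, matched by symbol among 55401 gene identifiers. All 6 were among the 18289 genes that passed the expression filter. They were chosen with results of these libraries known, so their differences between groups are given as descriptions, and the p-values below show where a gene stood in the fit of all genes and are no independent evidence.

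Egr proteins are zinc-finger transcription factors that bind GC-rich sites. Their genes are transcribed within minutes of a stimulus without new protein synthesis, the property that defines immediate early genes. In the cortex their transcription follows synaptic activity through calcium and MAP kinase signalling to serum response factor and CREB, and Egr1 and Egr3 are widely read as markers of recent neuronal activity. Nab1 and Nab2 have no DNA-binding domain of their own. They bind to a repressor domain of Egr1, Egr2 and Egr3 and damp their transcription, and Nab2 is itself an Egr target, which closes a negative feedback loop.

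Poly(A) RNA of the prefrontal cortex was sequenced 4 weeks after adeno-associated virus (AAV) had been injected bilaterally into its dorsomedial part, in male mice of the strain C57BL/6J that were 14 weeks old. The 4 Ttr knockdown samples received a vector in which a U6 promoter drives a short hairpin RNA against Ttr and a CAG promoter drives green fluorescent protein (GFP), followed by the WPRE3 element. The 4 Ttr overexpression samples received a vector in which the CAG promoter, active in most cell types, drives GFP linked through P2A to Ttr and followed by a WPRE element. The 4 control samples received a CAG-GFP vector, so all 3 groups were operated on, infected and made GFP. No U6 promoter or hairpin is described for the control vector. In knockdown against control, expression of a hairpin as such therefore cannot be told apart from targeting of Ttr. Both Ttr vectors were custom made by a viral core and the control vector came from Addgene, so the source of the vector cannot be told apart from the group. The labels do not say that each sample was a mouse of its own, so the p-values reflect how far these samples vary, and some of that may be technical.

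Each library held between 19879629 and 37166146 counts. Ttr had 3 to 47 counts in knockdown libraries, 2121 to 20940 counts in overexpression libraries and 14 to 200 counts in control libraries. The knockdown and control ranges overlapped, so the Ttr transcript does not check the knockdown label. Summed markers of excitatory cortical neurons spanned 2111 to 2466 CPM (counts scaled to library size) in knockdown libraries, 2117 to 2529 CPM in overexpression libraries and 2341 to 2565 CPM in controls, with all 10 markers detected. Summed striatal projection neuron markers, also all detected (11 of 11), spanned 373 to 1571 CPM in knockdown libraries, 342 to 1764 CPM in overexpression libraries and 403 to 1366 CPM in controls, several-fold within each group. The highest sums were in replicate 3 of the knockdown group, replicate 4 of the overexpression group and replicate 4 of the controls. In bulk tissue, fewer cells of a type and less RNA per cell cannot be told apart.

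The regulatory sequences at 4 of the 6 genes are shown because motifs of serum response factor, CREB and Egr proteins were searched in them. Each is a RefSeq window on GRCm38.p6 from 250 bases before to 50 bases after an annotated start (for Egr2, with 5 windows, the one at the principal start in GENCODE), read 5′ to 3′ on the strand of the gene, with every motif match in capitals. Egr2 is shown at chr10:67537619-67537918 on the plus strand, Egr4 at chr6:85513540-85513839 on the minus strand, Nab1 at chr1:52500399-52500698 on the minus strand and Nab2 at chr10:127666654-127666953 on the minus strand.
Egr2: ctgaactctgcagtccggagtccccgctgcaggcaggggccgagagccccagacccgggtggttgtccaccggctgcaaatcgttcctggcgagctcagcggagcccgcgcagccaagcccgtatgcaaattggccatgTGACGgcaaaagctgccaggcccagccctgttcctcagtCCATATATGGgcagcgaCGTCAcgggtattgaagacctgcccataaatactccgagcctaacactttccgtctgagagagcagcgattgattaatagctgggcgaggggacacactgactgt
Egr4: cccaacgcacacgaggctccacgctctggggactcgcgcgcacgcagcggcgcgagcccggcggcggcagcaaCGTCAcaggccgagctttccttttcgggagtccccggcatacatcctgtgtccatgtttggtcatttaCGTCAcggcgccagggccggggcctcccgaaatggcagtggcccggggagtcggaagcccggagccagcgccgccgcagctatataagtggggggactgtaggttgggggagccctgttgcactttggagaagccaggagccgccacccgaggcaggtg
Nab1: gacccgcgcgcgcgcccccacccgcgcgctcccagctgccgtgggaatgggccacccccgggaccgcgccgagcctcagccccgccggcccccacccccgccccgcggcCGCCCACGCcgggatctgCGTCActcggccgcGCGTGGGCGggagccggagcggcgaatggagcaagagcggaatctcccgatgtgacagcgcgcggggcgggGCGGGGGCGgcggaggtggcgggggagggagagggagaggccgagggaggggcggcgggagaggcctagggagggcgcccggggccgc
Nab2: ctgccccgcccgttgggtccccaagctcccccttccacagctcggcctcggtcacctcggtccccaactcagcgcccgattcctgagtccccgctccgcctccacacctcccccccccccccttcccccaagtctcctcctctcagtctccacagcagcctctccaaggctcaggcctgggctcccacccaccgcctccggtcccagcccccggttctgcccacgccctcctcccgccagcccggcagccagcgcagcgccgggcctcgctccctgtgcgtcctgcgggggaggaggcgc
The motifs searched on both strands were the CArG box bound by serum response factor, the CRE motif TGACGTCA and its shorter form TGACG bound by CREB, and the Egr motif as GCGTGGGCG and, with any base at the fourth position, GCGNGGGCG. Among 32851 windows of 300 bases, 1.63% held a CArG box, 1.79% TGACGTCA, 20.8% TGACG, 0.612% GCGTGGGCG and 5.55% GCGNGGGCG, the last form including every match of the stricter one. The Egr2 window held a CArG box 72 to 63 bases before the start, with TGACG at 111 to 107 bases before it and, on the opposite strand, at 55 to 51 bases before it. The Egr4 window held TGACG on the opposite strand at 177 to 173 and at 109 to 105 bases before the start. The Nab1 window held GCGTGGGCG on the opposite strand at 141 to 133 bases and on the gene's strand at 109 to 101 bases before the start, a GCGGGGGCG match of the looser form at 38 to 30 bases before it, and TGACG on the opposite strand at 123 to 119 bases before it. The start of this Nab1 window lies 231 bases downstream of the principal start of Nab1 in GENCODE, so these matches lie downstream of that principal start. The Nab2 window, whose start lies 7 bases downstream of the principal one, held none of these motifs. A match describes the letters and is not a measured binding site.

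Per transcript length, the 6 genes differed widely in level, as the plot of TPM by gene shows. In knockdown libraries Egr1 had the highest mean at 145 ± 36.8 TPM (an abundance scaled by gene length and to the same total in each library; mean ± SD, n = 4), followed by Egr3 at 134 ± 11.4, Nab2 at 46.8 ± 7.64, Egr4 at 37.0 ± 8.04, Nab1 at 24.4 ± 3.61 and Egr2 at 7.16 ± 2.15 TPM. There Egr1 and Egr3 overlapped, as did Nab2 and Egr4, and Egr4 and Nab1. Overexpression libraries had Egr3 at 130 ± 34.5, Egr1 at 98.5 ± 18.5, Nab2 at 38.7 ± 3.59, Egr4 at 25.3 ± 7.51, Nab1 at 24.5 ± 2.10 and Egr2 at 2.91 ± 1.62 TPM. The same 3 pairs of neighbours overlapped. In controls the order was Egr3 at 133 ± 38.7, Egr1 at 83.6 ± 1.17, Nab2 at 35.9 ± 3.72, Nab1 at 22.6 ± 1.01, Egr4 at 19.0 ± 1.16 and Egr2 at 1.57 ± 0.267 TPM, and no pair of neighbours overlapped.

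**Figure D1:**
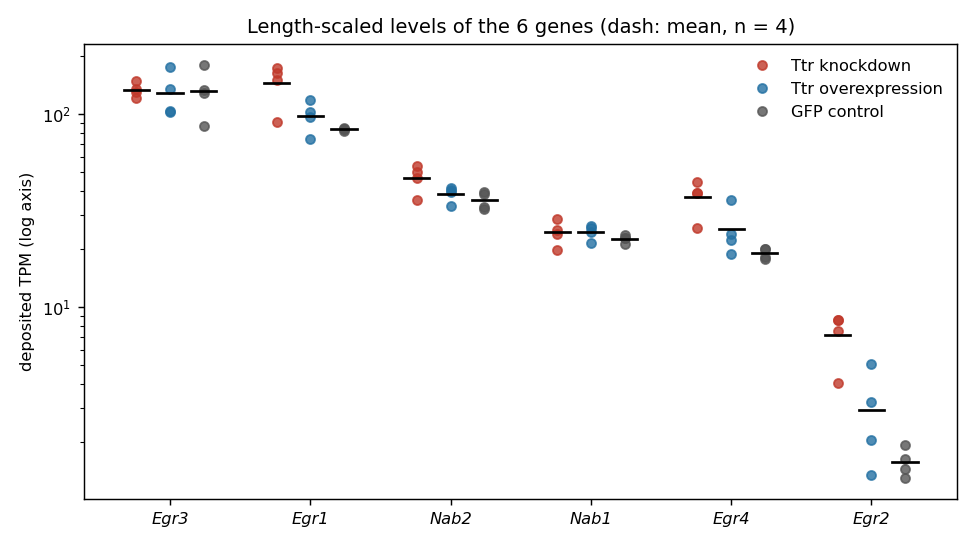
Deposited TPM of the 6 genes in each library on a log axis, in Ttr knockdown, Ttr overexpression and GFP control samples, with a dash at the mean of 4. Egr2 is the lowest of the 6 in every group, at a mean of 7.16 TPM in knockdown libraries, 2.91 TPM in overexpression libraries and 1.57 TPM in controls.

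Ttr knockdown was set against the GFP control to ask how the family stood when Ttr was targeted by the hairpin. Egr1, Egr2 and Egr4 were higher in every knockdown library than in any control, Nab2 was above every control in 3 of 4 knockdown libraries, Egr3 lay within the range of the controls, and Nab1 had knockdown libraries on both sides of it. No gene of the 6 passed the adjusted threshold of 0.05 over all genes in edgeR's quasi-likelihood test, whereas 1 gene of all tested (0.00547%) did. At an unadjusted p below 0.05, 4 of the 6 passed upward, beside 3.85% of all genes. Markers of other cell types differed between the same groups: all 8 microglial markers (summing to 488 to 713 CPM in knockdown libraries and 429 to 504 CPM in controls) and all 8 endothelial markers (223 to 288 CPM in knockdown libraries and 198 to 226 CPM in controls) had a positive log2 difference, and all 8 oligodendrocyte markers a negative one. None of these markers was called in edgeR or DESeq2 (3 had an unadjusted p below 0.05 in each, 1 microglial and 2 endothelial). The upper ends of 713 and 288 CPM were both in knockdown replicate 4, beside 515, 530 and 488 CPM and 223, 256 and 227 CPM in replicates 1 to 3. Of 12 mural and meningeal markers 9 had a positive log2 difference (median 0.36), 3 with an edgeR unadjusted p below 0.05. Of 10 excitatory neuron markers 6 had a negative one, 1 with an edgeR unadjusted p below 0.05. Neither list had a call in edgeR or DESeq2. The part of microglial, endothelial, mural and meningeal cells in the Egr values was not tested.

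Egr1, an inducible regulator needed for lasting synaptic plasticity and memory, has the identifier ENSMUSG00000038418 and lies at chr18:34859823-34864984 on the plus strand of GRCm38. It had 313, 288, 260 and 173 CPM in knockdown replicates 1 to 4, against 151, 154, 151 and 146 CPM in control replicates 1 to 4. Every knockdown library was above every control, replicate 4 of the knockdown group by the least, while the controls were nearly level, with a coefficient of variation of 2.13%. The mean was 259 ± 60.9 CPM in knockdown libraries and 151 ± 3.20 CPM in controls (SD, n = 4 each), a 1.72-fold ratio. edgeR gave a log2 difference of 0.78 ± 0.16 (SE) with an adjusted p of 0.234 and ranked the gene 20th of 18289 by p.

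Egr2, known for hindbrain patterning and for switching on myelination in Schwann cells and inducible in neurons as well, has the identifier ENSMUSG00000037868 and lies at chr10:67535475-67542188 on the plus strand. It had 10.2, 9.92, 8.59 and 5.05 CPM in knockdown replicates 1 to 4, from 99 to 301 counts a library, and 1.95, 1.57, 2.24 and 1.69 CPM in control replicates 1 to 4, from 37 to 82 counts. The groups did not overlap, and knockdown replicate 4 was again the lowest of its group. The mean was 8.45 ± 2.38 CPM in knockdown libraries and 1.86 ± 0.296 CPM in controls, a 4.54-fold ratio and the largest of the 6. The log2 difference was 2.17 ± 0.34 (SE; edgeR adjusted p = 0.190), which ranked 2nd of all genes by p. Schwann cell markers were near 0, with Pmp2 at 0 counts in all libraries and the 2 markers that were tested summing to at most 1.31 CPM in knockdown libraries and 1.61 CPM in controls.

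Egr4, a neuronal immediate early gene also required in male germ cells, has the identifier ENSMUSG00000071341 and lies at chr6:85511121-85513589 on the minus strand. Knockdown replicates 1 to 4 had 38.6, 32.7, 32.3 and 23.3 CPM, and control replicates 1 to 4 had 15.4, 17.5, 17.0 and 15.4 CPM. Again no library of the groups overlapped and the fourth knockdown replicate was the lowest. With means of 31.7 ± 6.31 CPM in knockdown libraries and 16.4 ± 1.10 CPM in controls the ratio was 1.94-fold, and the log2 difference was 0.96 ± 0.18 (SE; edgeR adjusted p = 0.234, 8th of all genes by p). CPM stood higher in every knockdown than in every control library for these 3 of the 6 genes, and for 2.78% of all genes tested.

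Egr3, which neurons induce with activity and which muscle spindles need to form, has the identifier ENSMUSG00000033730 and lies at chr14:70077203-70082614 on the plus strand. It had 236, 201, 185 and 225 CPM in knockdown replicates 1 to 4, against 212, 140, 282 and 202 CPM in control replicates 1 to 4. All knockdown libraries lay inside the control range, and the controls varied far more than they did for Egr1, with a coefficient of variation of 27.9%. The log2 difference was 0.02 ± 0.21 (SE), with a 95% interval of -0.43 to 0.46 and an edgeR adjusted p of 0.998, so a change of about the size fitted for Egr1 (0.78) lay outside the interval.

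Of the corepressors, Nab2, the inducible one, has the identifier ENSMUSG00000025402 and lies at chr10:127660918-127668568 on the minus strand. Knockdown replicates 1 to 4 had 55.8, 47.3, 50.1 and 39.3 CPM, and control replicates 1 to 4 had 34.4, 41.0, 33.0 and 40.3 CPM. Only knockdown replicate 4 fell within the control range. The mean was 48.1 ± 6.85 CPM in knockdown libraries and 37.2 ± 4.09 CPM in controls, and the log2 difference was 0.38 ± 0.11 (SE; edgeR adjusted p = 0.565, 108th by p). Nab2 overlaps Stat6 over 40 bases, Nemp1 over 1668 bases and the antisense gene Gm16229 over 1646 bases, all on the opposite strand. Gm16229 had at most 3 counts in any library, Nemp1 at most 191 and Stat6 at most 499, but the strand setting of the counting is not given in the sources used here, so reads of Nab2 and these genes may not be fully separated.

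Nab1, the corepressor that is expressed more steadily, has the identifier ENSMUSG00000002881 and lies at chr1:52457294-52500679 on the minus strand. It had 39.1, 43.3, 35.7 and 32.4 CPM in knockdown replicates 1 to 4, against 33.2, 37.7, 35.0 and 34.7 CPM in control replicates 1 to 4. The groups overlapped, with knockdown replicates 1 and 2 above all controls and replicate 4 below them. The log2 difference was 0.10 ± 0.085 (SE), with a 95% interval of -0.084 to 0.28 (edgeR adjusted p = 0.938).

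**Figure D2:**
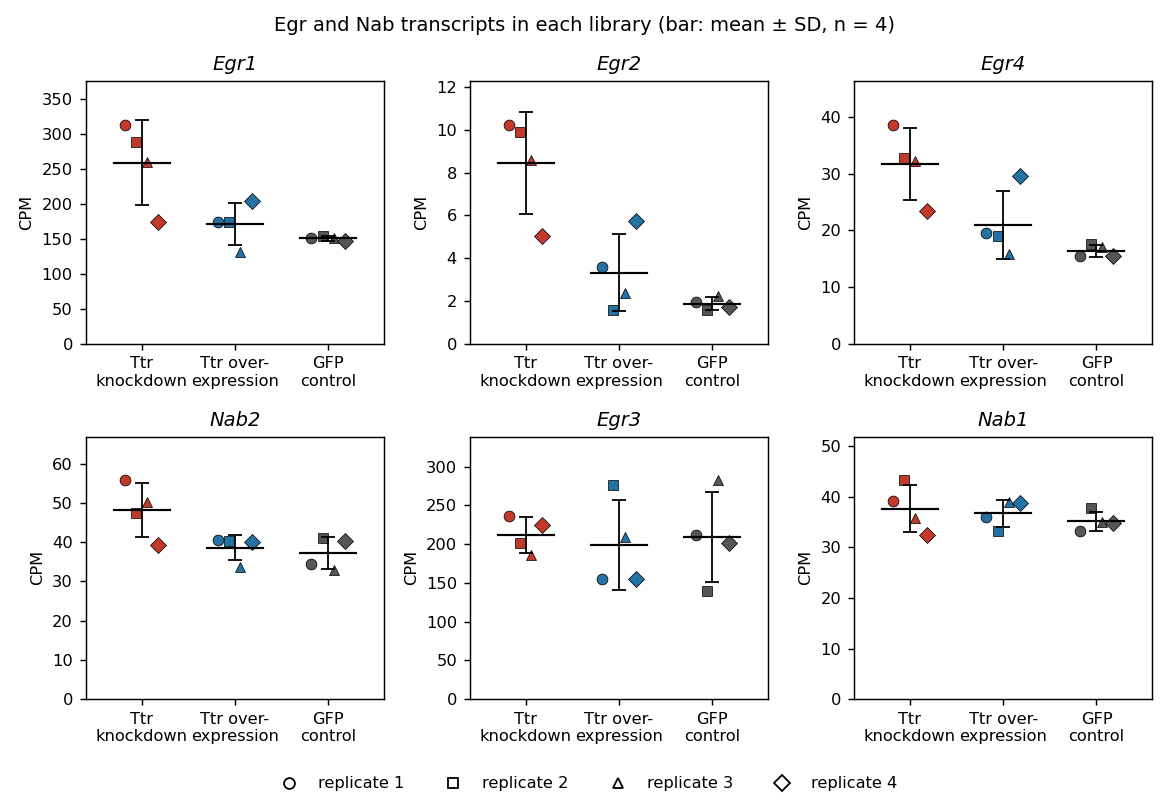
CPM of each gene in each library of the Ttr knockdown, Ttr overexpression and GFP control groups, with the marker shape giving the replicate number and the bar the mean ± SD of 4. Egr1, Egr2 and Egr4 show all 4 knockdown libraries above all 4 controls, while the groups overlap for Egr3 and Nab1.

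Which of these genes passed the threshold depended on the fit and on single libraries, while the log2 differences of Egr1, Egr2 and Egr4 were positive in all 24 alternatives. DESeq2 called Egr1 (log2 difference 0.78, adjusted p = 0.00197), Egr2 (2.17, adjusted p = 2.17e-07) and Egr4 (0.95, adjusted p = 0.000354), beside 0.204% of all genes called in either direction and 0.194% upward. edgeR with no expression filter called the same 3 genes (adjusted p = 0.0418 for Egr1, 0.00514 for Egr2 and 0.0368 for Egr4), beside 0.0604% of all genes upward. Fitted on the knockdown and control libraries alone, edgeR called Egr2 (adjusted p = 0.0226), beside 0.0112% of all genes upward.

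Without knockdown replicate 4, the lowest of its group for these genes, edgeR called all 3, with log2 differences of 0.93 for Egr1 (adjusted p = 0.0177), 2.35 for Egr2 (adjusted p = 0.0356) and 1.08 for Egr4 (adjusted p = 0.0441), among 10 genes called in all, which were all higher (0.0539%). Overexpression replicate 4 enters this comparison through the shared estimate of the spread, the expression filter and the library scaling factors. Without it, Egr2 (edgeR adjusted p = 0.0207) and Egr4 (edgeR adjusted p = 0.0357) were called, among 3 genes called (0.0162%). Without overexpression replicate 2, Egr2 was (edgeR adjusted p = 0.0366), among 2 genes called (0.0108%). Over the 12 fits with 1 library left out, Egr2 was called in 3, Egr4 in 2 and Egr1 in 1. The log2 differences in those fits were lowest without knockdown replicate 1, at 0.68 for Egr1, 2.07 for Egr2 and 0.85 for Egr4. Over 24 alternatives Egr2 was called in 7, Egr4 in 4, Egr1 in 3 and Egr3, Nab1 and Nab2 in 0, and the adjusted p ranged from 2.17e-07 to 0.836 for Egr2, from 0.000354 to 0.913 for Egr4 and from 0.00197 to 0.913 for Egr1. With the striatal marker score as a covariate the log2 differences were 0.76 for Egr1, 2.08 for Egr2 and 0.93 for Egr4, and Egr2 was called (adjusted p = 0.0292), beside 0.0219% of all genes upward. Without the library of each group with the highest striatal sum they were 0.76, 2.11 and 0.91, and none was called.

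Ttr overexpression was set against the same control libraries to ask how the family stood when Ttr was raised. No gene of the 6 passed edgeR's adjusted threshold, and 1 of all genes (0.00547%) did. No gene of the 6 was higher in every overexpression library than in every control, beside 1.88% of all genes. Egr2 was the one with an unadjusted p below 0.05, beside 4.58% of all genes upward, and DESeq2 called none of the 6, beside 0.177% of all genes in either direction and 0.173% upward. All 12 mural and meningeal markers had a positive log2 difference (median 1.12; 0 called by edgeR, 10 at an unadjusted p below 0.05, 4 called by DESeq2), and they summed to 218 to 323 CPM in overexpression libraries, against 151 to 207 CPM in controls. As in knockdown against control, all 8 microglial markers (median 0.25) and all 8 endothelial markers (median 0.18) had a positive log2 difference. All 8 oligodendrocyte markers again had a negative one (median -0.31). None of the markers of these 3 lists was called in edgeR or DESeq2, and 3, all endothelial, had an edgeR unadjusted p below 0.05. The part of all these cell types in the Egr and Nab values was not tested.

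Egr1 had 175, 174, 131 and 205 CPM in overexpression replicates 1 to 4, against 146 to 154 CPM in controls. Overexpression replicate 3 was below and the other 3 were above all controls. The log2 difference was 0.18 ± 0.16 (SE), with a 95% interval of -0.16 to 0.52 (edgeR adjusted p = 0.874).

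Egr2 had 3.60, 1.59, 2.36 and 5.73 CPM in overexpression replicates 1 to 4, against 1.57 to 2.24 CPM in controls. The group spread widely, from the lower end of the controls in replicate 2 to above the lowest knockdown library in replicate 4. The log2 difference was 0.80 ± 0.34 (SE; edgeR unadjusted p = 0.0365, adjusted p = 0.789), and it came to 0.41 without replicate 4 and 1.04 without replicate 2.

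Egr4 had 19.6, 19.0, 15.8 and 29.6 CPM in overexpression replicates 1 to 4, against 15.4 to 17.5 CPM in controls. Replicate 4 was again the highest of its group and replicate 3 the lowest. The log2 difference was 0.35 ± 0.18 (SE; edgeR adjusted p = 0.821) and 0.14 without replicate 4. That library had the highest striatal marker sum of the group (1764 CPM). It also had the highest microglial sum (811 CPM, against 409 to 549 CPM in the other 3). In the knockdown group the highest microglial sum (713 CPM) was in replicate 4, the lowest of that group for Egr1, Egr2 and Egr4. The part of striatal or microglial cells in the Egr values of these libraries was not tested.

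Egr3 had 155, 276, 210 and 155 CPM in overexpression replicates 1 to 4, against 140 to 282 CPM in controls. All 4 lay within the control range (log2 difference -0.07 ± 0.21 SE, edgeR adjusted p = 0.967, 95% interval -0.52 to 0.37). Nab2 had 33.7 to 40.4 CPM in overexpression libraries and 33.0 to 41.0 CPM in controls, with a log2 difference of 0.06 ± 0.11 (SE; edgeR adjusted p = 0.951, 95% interval -0.17 to 0.29). Nab1 had 33.2 to 39.0 CPM in overexpression libraries and 33.2 to 37.7 CPM in controls, with a log2 difference of 0.06 ± 0.084 (SE; edgeR adjusted p = 0.931, 95% interval -0.12 to 0.24).

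Knockdown was then set directly against overexpression. None of the 6 genes passed edgeR's adjusted threshold, beside 0.00547% of all genes, and DESeq2 called none of them, beside 0.0115% of all genes in either direction and 0.00576% upward. No gene of the 6 was higher in every knockdown than in every overexpression library, beside 1.14% of all genes. The same 4 genes as against the control (Egr1, Egr2, Egr4 and Nab2) had an unadjusted p below 0.05, beside 2.32% of all genes upward, and both comparisons share the knockdown libraries. All 12 mural and meningeal markers had a negative log2 difference here (176 to 207 CPM in knockdown libraries, 218 to 323 CPM in overexpression libraries), and their part was not tested.

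For Egr2, mean CPM was 8.45 ± 2.38 in knockdown libraries and 3.32 ± 1.81 in overexpression libraries, and the log2 difference was 1.37 ± 0.32 (SE; edgeR adjusted p = 0.855). Knockdown replicate 4 (5.05 CPM) lay below overexpression replicate 4 (5.73 CPM), and this was the one crossing. For Egr4 the means were 31.7 ± 6.31 CPM in knockdown libraries and 21.0 ± 5.99 CPM in overexpression libraries, with a log2 difference of 0.60 ± 0.17 (SE; edgeR adjusted p = 0.855). For Egr1 they were 259 ± 60.9 CPM in knockdown libraries and 171 ± 30.3 CPM in overexpression libraries, with a log2 difference of 0.60 ± 0.16 (SE; edgeR adjusted p = 0.855).

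Nab2 averaged 48.1 ± 6.85 CPM in knockdown libraries and 38.6 ± 3.26 CPM in overexpression libraries, with a log2 difference of 0.32 ± 0.11 (SE; edgeR adjusted p = 0.967). Egr3 averaged 212 ± 22.8 CPM in knockdown libraries and 199 ± 57.6 CPM in overexpression libraries (log2 difference 0.09, 95% interval -0.35 to 0.53). Nab1 averaged 37.6 ± 4.66 CPM in knockdown libraries and 36.7 ± 2.72 CPM in overexpression libraries (log2 difference 0.04, 95% interval -0.15 to 0.22). The plot of log2 differences sets the 3 comparisons side by side. Both Ttr groups share the control libraries, so their differences from the control are not independent of each other.

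**Figure D3:**
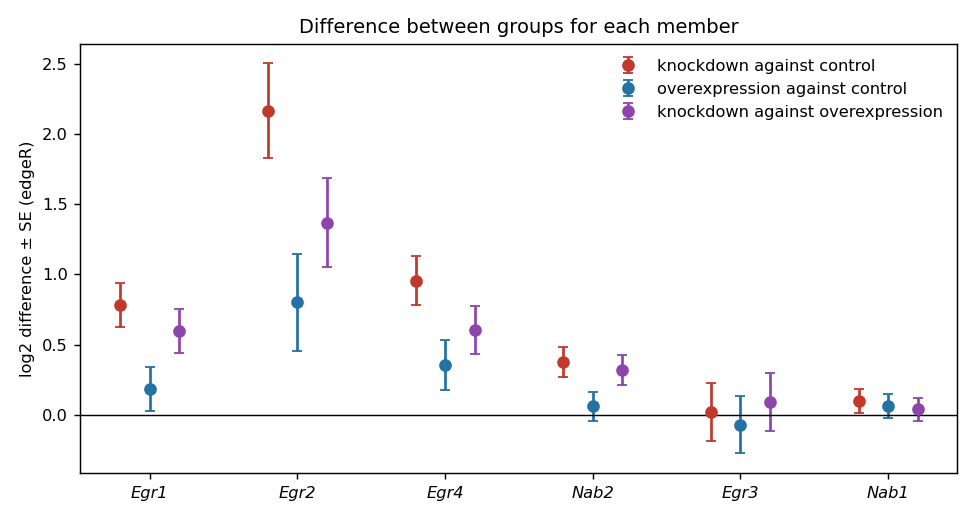
edgeR log2 difference ± SE of each gene for knockdown against control, overexpression against control and knockdown against overexpression, 4 libraries a group. The knockdown differences from control are 0.78 for Egr1, 2.17 for Egr2 and 0.96 for Egr4, and those of overexpression are 0.18, 0.80 and 0.35.

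The balance among family members was described with ratios of TPM within a library. Egr2 stood at 4.89% of Egr1 on average in knockdown libraries, at 2.87% in overexpression libraries and at 1.87% in controls. The ratio was 0.0440 to 0.0520 in knockdown libraries and 0.0155 to 0.0224 in controls, with no overlap, while overexpression libraries ran from 0.0138 to 0.0423. Egr4 kept closer to Egr1, at 25.9% of it in knockdown libraries, 25.4% in overexpression libraries and 22.7% in controls. Here the ratios of knockdown libraries (0.237 to 0.281) and controls (0.213 to 0.238) overlapped.

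The ratio of Egr1 to Egr3 was 1.17, 1.26, 1.23 and 0.677 in knockdown replicates 1 to 4, 0.992, 0.553, 0.549 and 1.16 in overexpression replicates 1 to 4, and 0.628, 0.966, 0.470 and 0.636 in control replicates 1 to 4. Egr1 thus exceeded Egr3 in 3 knockdown libraries, in 1 overexpression library and in none of the controls. Nab2 over Nab1 averaged 1.93 ± 0.238 in knockdown libraries, 1.59 ± 0.223 in overexpression libraries and 1.59 ± 0.139 in controls. The ratios of Nab2 to Nab1 overlapped between knockdown libraries (1.64 to 2.14) and controls (1.41 to 1.74). Relative to Egr1, the corepressor Nab2 stood at 33.1% in knockdown libraries, 39.9% in overexpression libraries and 43.0% in controls. That ratio also overlapped between knockdown libraries (0.286 to 0.394) and controls (0.380 to 0.480). The TPM of Egr1 to Egr4 together came to 323 ± 50.3 in knockdown libraries, 256 ± 30.7 in overexpression libraries and 237 ± 39.8 in controls, with the knockdown and control ranges overlapping.

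To look at the genes apart from the group means with which they were chosen, log2 CPM was centred on each group's mean and the 15 pairs of genes were compared over the 12 libraries, with exact two-sided permutation within groups. Egr1 and Egr4 were high and low in the same libraries (Pearson r = 0.90, exact permutation p = 0.000434, adjusted p = 0.00651; Spearman rho = 0.77, exact permutation p = 0.00109, adjusted p = 0.0163). Without the 2 libraries farthest from the median of Egr1, r was 0.83. This was the 1 pair of 15 that passed the adjusted threshold on CPM. On log2 TPM, Egr1 and Egr4 passed too (r = 0.91, exact permutation, adjusted p = 0.0141), and so did the rank correlations of Egr1 with Egr2 (rho = 0.86, exact permutation, adjusted p = 0.0217; r = 0.73, adjusted p = 0.0901) and of Egr2 with Egr4 (rho = 0.89, exact permutation, adjusted p = 0.0221; r = 0.83, adjusted p = 0.0901).

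On CPM, Egr2 and Egr4 gave r = 0.79 (exact permutation, adjusted p = 0.146; rho = 0.80, adjusted p = 0.0613), and Egr1 and Egr2 gave r = 0.68 (exact permutation, adjusted p = 0.161; rho = 0.77). Egr1 and Nab2 gave r = 0.76 (exact permutation, adjusted p = 0.146; rho = 0.56), but 0.36 without the 2 farthest libraries, so that relation rests on those libraries. Egr3 had a negative r with each of the other 5 genes, from -0.19 with Egr1 to -0.40 with Egr2, and none passed (exact permutation, adjusted p from 0.318 to 0.520). Without the 2 libraries farthest in Egr2, r of Egr2 with Egr3 was 0.098, so its sign rests on those libraries. The libraries that set Egr1 and Egr4 apart were knockdown replicates 1 and 4 and overexpression replicates 3 and 4, since the controls hardly varied in either gene.

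**Figure D4:**
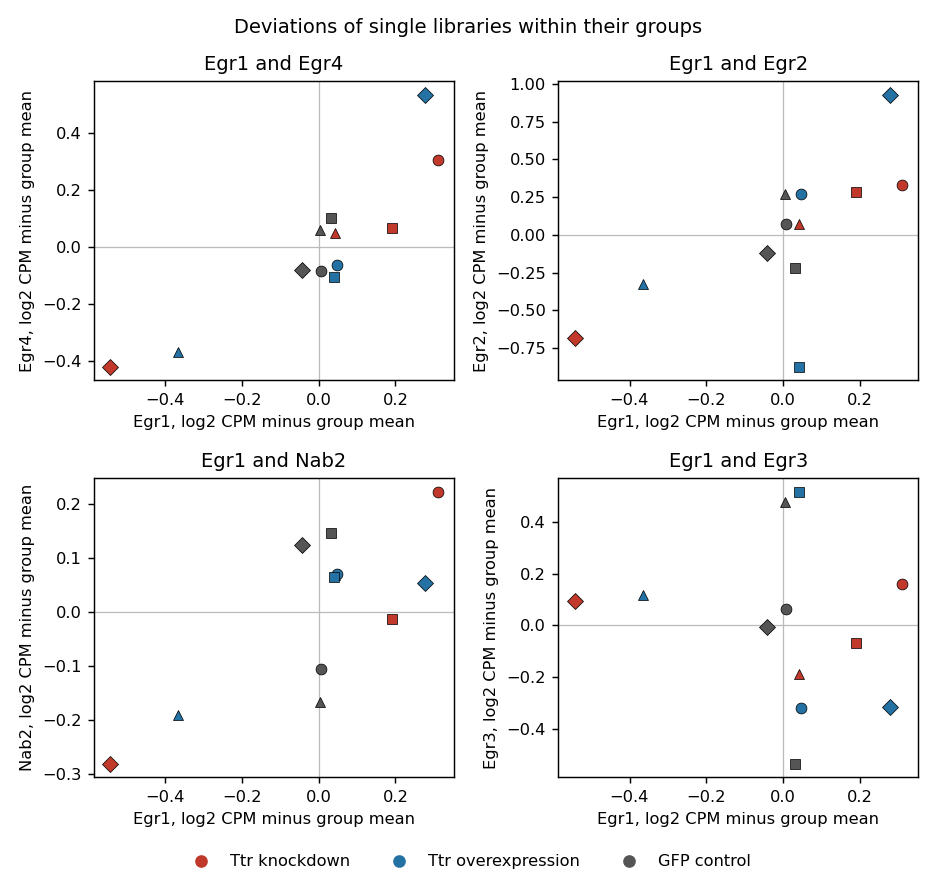
Log2 CPM of a library minus its group mean, for Egr1 on the x axis and Egr4, Egr2, Nab2 or Egr3 on the y axis; each point is 1 of 12 libraries, coloured by group and shaped by replicate number. Egr1 and Egr4 vary together (r = 0.90), whereas Egr1 and Egr3 gave r = -0.19.

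The members were also set against summed cell type markers in the same centred way, 18 relations with striatal, oligodendrocyte and excitatory neuron markers that were picked after the marker sums had been seen. None passed. The 4 with the largest r were Nab1 with oligodendrocyte markers (r = 0.69, rho = 0.64, exact permutation p = 0.0163, adjusted p = 0.201; r = 0.60 without the 2 farthest libraries), Egr3 with striatal markers (r = -0.68, rho = -0.76, exact permutation p = 0.0336, adjusted p = 0.201; r = -0.63 without them), Nab2 with oligodendrocyte markers (r = 0.64, rho = 0.52, exact permutation p = 0.0714, adjusted p = 0.321; r = 0.29 without them) and Egr3 with oligodendrocyte markers (r = -0.63, rho = -0.59, exact permutation p = 0.0249, adjusted p = 0.201; r = -0.60 without them). For Egr1, Egr2 and Egr4, r with striatal markers was 0.39, 0.59 and 0.52 and rho 0.45, 0.58 and 0.60 (exact permutation, adjusted p from 0.343 to 0.402).

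Over all 12 libraries, group differences included, the genes whose log2 CPM followed each member most closely were found among 12381 genes with a mean of at least 5 CPM. These likenesses are descriptions, and the points share library and group. For Egr1 they were Egr4 (r = 0.959), the orphan nuclear receptor and immediate early gene Nr4a1 (0.940) and Ccdc6 (0.939). Egr2 was closest to Fos, a subunit of the AP-1 transcription factor (0.959), then Nr4a1 (0.948) and Egr4 (0.943), and Egr4 to Egr1 (0.959), Nr4a1 (0.954) and Arc, which encodes a synaptic capsid-like protein (0.942). Egr2 was below the 5 CPM minimum and so was no candidate, though its r with Egr4 (0.943) was above that of Arc.

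For Egr3 they were the prostaglandin receptor regulator Ptgfrn (0.973), Lamp5, a membrane protein of neurons (0.965), and the circadian clock gene Arntl (0.951). None of them was among the closest 3 genes of another member, and the same held for the closest genes of Nab2 and of Nab1. Nab2 was closest to the kinase genes Itpkc (0.951) and Plk3 (0.925) and to Ier5l (0.927). Nab1 had looser neighbours, the SUMO protease gene Senp1 (0.898), Hmgb3 (0.890) and the lamin B receptor gene Lbr (0.843).

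The genes around the family were followed in 4 lists chosen from textbook knowledge with earlier results of these data known. Of 21 kinases, coactivators and transcription factors that act upstream of Egr transcription, such as Srf, Elk1 and Creb1, all were tested and 11 had a positive log2 difference in knockdown against control, with a median of 0.018 beside 0.0047 over all genes. None passed in edgeR or DESeq2, and 0 had an unadjusted p below 0.05 in either. The highest was Mapk3, the MAP kinase ERK1, at 181 ± 16.9 CPM in knockdown libraries and 161 ± 16.0 CPM in controls (log2 difference 0.17 ± 0.14 SE), and the lowest was the calcium-dependent kinase gene Camk4 (-0.15 ± 0.097 SE).

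Of 10 Nab partners and related zinc fingers, 9 were tested (Wt1 was not) and 5 had a positive log2 difference, with a median of 0.054. None passed in edgeR. At an edgeR unadjusted p below 0.05, 2 were higher, beside 3.85% of all genes, and 1 was lower. DESeq2 called 1, Klf10, beside 0.194% of all genes upward. Klf10, a TGF-beta inducible repressor that binds GC-rich DNA, had 57.4 ± 8.42 CPM in knockdown libraries, 40.2 ± 5.37 CPM in overexpression libraries and 38.2 ± 3.93 CPM in controls. Its log2 difference of knockdown from control was 0.59 ± 0.12 (SE; edgeR adjusted p = 0.234), and the lowest of the list was Sp1 (-0.16 ± 0.079 SE).

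Of 13 reported Egr targets in neurons, 7 had a positive log2 difference in knockdown against control, with a median of 0.0034, below that of all genes. None passed in edgeR, and 1 was higher at an edgeR unadjusted p below 0.05, beside 3.85% of all genes. DESeq2 called 1, Arc, beside 0.194% of all genes upward. Arc, which drives removal of glutamate receptors from synapses, had 180 ± 49.8 CPM in knockdown libraries, 108 ± 38.4 CPM in overexpression libraries and 76.9 ± 19.0 CPM in controls. The knockdown libraries (111 to 224 CPM) lay above all controls (50.2 to 90.6 CPM), as they did for 2.78% of all genes. The log2 difference was 1.23 ± 0.26 (SE, edgeR adjusted p = 0.320). The lowest of the list was the neurotrophin receptor gene Ngfr (-0.09 ± 0.26 SE).

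Of 16 reported Egr targets outside neurons, 14 were tested and 8 had a positive log2 difference, with a median of 0.082. None passed in edgeR or DESeq2, and 1 was higher at an edgeR unadjusted p below 0.05. Over the 4 lists, 4 of 57 genes (7.02%) were higher at that threshold, beside 3.85% of all genes, and 1 was lower. The values ran from 0.55 ± 0.34 (SE) for Tnfsf10, a death receptor ligand, to -0.59 ± 0.31 (SE) for Mag, a myelin glycoprotein that is also among the oligodendrocyte markers. Those markers summed to 2283 to 5345 CPM in knockdown libraries and 3731 to 9172 CPM in controls, and their part in the Mag value was not tested.

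In overexpression against control, 11 of 21 upstream activators, 5 of 9 Nab partners, 5 of 13 neuronal targets and 6 of 14 other targets had a positive log2 difference, with medians of 0.0035, 0.020, -0.024 and -0.023 beside 0.0038 over all genes. In knockdown against overexpression the counts were 11, 4, 7 and 6 and the medians 0.012, -0.016, 0.022 and -0.037, beside -0.0002 over all genes. No gene of the 4 lists passed in either comparison with edgeR or DESeq2. With edgeR, 4 of 57 list genes (7.02%) in overexpression against control had an unadjusted p below 0.05, all higher, beside 4.58% of all genes upward. In knockdown against overexpression 4 of 57 were higher (7.02%, beside 2.32% of all genes) and 1 was lower (1.75%, beside 2.78% of all genes).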

How the data were processed

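The labels' protocols describe poly(A)-selected, directional libraries with unique molecular identifiers in the adaptors, from an input of 500 ng of RNA. Per the submitters' processing notes the tools were featureCounts, DESeq2, UMI-tools and bcl2fastq 2.20.0.422, with the build GRCm38 (mm10); their roles, the aligner and any use of the identifiers were not given in the sources used here. The authors deposited whole-number counts per gene, TPM values and variance-stabilised values on a log2 scale, whose transformation is unknown here. The log2 values entered only 1 alternative. Symbols and coordinates are from GENCODE on GRCm38 (55141 of 55401 identifiers matched).

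The members and gene lists were chosen with earlier results of these data known. Counts were tested with edgeR 4.0.16 in R 4.3.3 (quasi-likelihood, TMM factors, default expression filter by group, 12 libraries in 1 fit of 3 groups). Adjusted p-values are Benjamini-Hochberg over 18289 genes; below 0.05 was a call. CPM are counts scaled by library total and TMM factor, and log2 CPM used a prior count of 2. Depth sets the counting error of low genes such as Egr2. Alternatives were other scaling, filters, DESeq2 1.42.0, limma 3.58.1, a replicate block, each library left out, log2(TPM + 0.1) and 2 striatal settings added after the data were seen. Named genes were all members, the list gene with the highest and the one with the lowest knockdown difference of 4 lists, every list gene called, and the 3 most alike genes per member. Likeness and centred correlations used Python 3.11.15. Within each group no libraries were duplicates (chi-square per degree of freedom 5.37 to 28.4), and pairs across groups were not compared. The fit was tested on simulated data. Some list genes are not reported here by name.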

Additional observations from a re-analysis of the deposited data

Results flagged for a closer look

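Nab2 stood out in 1 overexpression library: replicate 3 had 33.7 CPM, against 40.0 to 40.4 CPM in the other 3, and the gap took up a share of 0.936 of the group's range, above Dixon's 95% critical value for 4 libraries. The same library was also the lowest of its group for Egr1 and Egr4. Of 18 sets of 4 libraries (6 genes in 3 groups) this was the 1 that stood out, and chance gives about 1 in 20.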

How the results depend on the processing

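The number of genes called was 1 in each comparison. For knockdown against control it was 22 with no filter, 42 with DESeq2, 2 with only the groups compared, 0 with limma on TPM, 4 with the striatal score as covariate and 0 without the library of each group highest in striatal markers. For overexpression against control it was 20 with no filter, 40 with DESeq2, 0 with limma-voom, 0 with only the groups compared and 0 without the high striatal libraries. For knockdown against overexpression it was 4 with DESeq2, 0 with limma-voom and 0 without the high striatal libraries. The labels do not say what a replicate number marks, and the main fit used no pairing. Deviations of same-numbered libraries correlated from -0.341 to 0.160. Differently numbered pairs were not compared, so these values cannot show whether the numbers mark a shared batch. With a replicate block the number of genes called was 0 for knockdown against control, 1 for overexpression against control and 2 for knockdown against overexpression. With each library left out in turn it ranged from 0 to 10, from 0 to 4 and from 0 to 2. Log2 differences changed sign for Nab1 in knockdown against overexpression on TPM (-0.017) and for Egr3 in overexpression against control without the high striatal libraries (0.0031). With libraries left out, Egr3 ranged from -0.13 to 0.20 in knockdown against control, from -0.27 to 0.11 in overexpression against control and from -0.012 to 0.29 in knockdown against overexpression, and Nab1 from -0.038 to 0.10 in the last. The causes were not tested. In all, 406 member values kept direction and side of the threshold, 14 passed it and 12 changed sign. The variance-stabilised scale gave 0.86 for Egr2 in knockdown against control, where edgeR gave 2.17. Egr2, at 37 to 82 counts in controls, is the member depth limits most.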
